A study of Rattus norvegicus with 2 samples.

Results

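Immediate-early and activity-induced genes were examined in the left adrenal medulla of rats in a hypoglycemic clamp, 30 min after the target glucose level was reached. The group was defined by name. It held 38 genes of the Fos, Jun, Egr, Nr4a, Klf, Dusp, Gadd45, Btg and Ier families with some single genes, and every probe set annotated to exactly 1 of these symbols was taken. This gave 67 of 31042 probe sets, which read 37 of the 38 genes among 14217 genes on the array. No probe set was annotated to Btg2 alone, so no level is given for it.

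Immediate-early genes are transcribed within minutes of a stimulus, without prior protein synthesis, when kinases such as ERK and PKA activate factors already bound to their promoters. CREB, bound at the cAMP response element (CRE), and SRF, bound at the CArG box, are the best known of these. In adrenal chromaffin cells, acetylcholine and PACAP released from the splanchnic nerve raise calcium and cAMP and switch on Fos, Egr1, Nr4a and other genes of this group. Many of the products are transcription factors of later genes, and others, such as the Dusp phosphatases, Zfp36 and the repressor isoforms of Crem, close the response down. Their transcripts are short-lived, so that their levels follow recent stimulation.

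The 2RH30 group consisted of adult male Sprague-Dawley rats made hypoglycemic by intraperitoneal human insulin at 2 IU/kg, 2 times per day for 3 days. The 2RS30 group was handled in the same way with saline injections. The methods of the study state that the last of these days had 1 injection only, followed by an overnight fast. On day 4 both groups, carrying venous and arterial catheters, received the insulin infusion and were held at the glucose target of 40 to 50 mg/dL given in the labels. They were killed 30 min after reaching it. The comparison thus asks how medullary transcript levels during the same hypoglycemia differ with antecedent hypoglycemia. A difference already present before the clamp cannot be told apart from a changed response to it. Both groups had been clamped, so an induction of these genes that was common to them would not appear, and arrays of unclamped rats were not analysed here.

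For each group the RNA of 6 rats was combined into 1 pool, which was read on 1 Affymetrix Rat Genome 230 2.0 array. With 1 array each there is no spread between animals, no test and no p-value, and each value below is a difference between 2 pools. Fewer cells of a type and less RNA per cell cannot be told apart in such pools. All values are log2, differences are 2RH30 minus 2RS30, and 1 unit is a 2-fold difference. For each gene the probe set of highest mean level over the 2 arrays, called the brightest, was used, and a probe set under the median of its array on both arrays was called dim. The brightest probe set was dim for 6 genes of the group, Egr3, Dusp5, Klf4, Klf10, Myc and Gadd45b, and 11 of the 67 probe sets were dim. The 2 arrays were not alike in technical respects. The values of 2RH30 were spread more widely, with an SD of 1.57 against 1.28 in 2RS30, and the hybridization controls bioB, bioC, bioDn and creX differed by -3.25, -2.63, -1.74 and -0.51. Probe sets with 1 named gene were split into 40 bins by level, and the median difference was 0.54 in the bin of highest level and -0.33 in that of lowest level. A second form of each difference, called level-adjusted, has this trend subtracted. Over all genes with several probe sets the SD between the probe sets of a gene was 0.80, the only repeat measure these arrays hold, and it includes no spread between animals.

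The chromaffin markers Th, Dbh, Pnmt, Chga, Chgb, Slc18a1 and Slc18a2 were not dim, at 11.96 in 2RH30 and 11.45 in 2RS30 for Th, the tyrosine hydroxylase gene. Cortical genes were bright as well, with Star, the cholesterol transporter of steroid cells, at 12.51 in 2RH30 and 11.81 in 2RS30. The medullary samples therefore held RNA of the cortex, whose cells also use Nr4a1, Fos and other genes of this group, and the source cell of a transcript cannot be told apart here. The summed level of 7 chromaffin markers was 13.45 in 2RH30 and 12.94 in 2RS30, and that of 7 cortical markers 14.85 in 2RH30 and 14.17 in 2RS30. Level-adjusted, the 7 chromaffin genes had a median difference of 0.09 and the 7 cortical genes one of 0.04. Of 10 macrophage and leukocyte markers, 5 were 2-fold or more higher in 2RH30 and 1 lower (level-adjusted 4 and 1), where 11.5% of all genes were higher and 9.62% lower (level-adjusted 8.95% and 9.31%), with a summed level of 10.76 in 2RH30 and 10.08 in 2RS30. The 5 were C1qa, C1qb, C1qc, Cd68 and Cd14, with differences of 2.71, 1.38, 1.33, 1.60 and 1.10, and the 1 was Itgam at -1.11. The 2RS30 level of C1qa, 3.06, lay under the 5th percentile of its array, and the markers of these cells did not share a direction. By brightest probe set, 0 of the 7 endothelial, 5 glial and 7 fibroblast markers differed 2-fold as deposited, against the same 11.5% and 9.62%. Another probe set of the endothelial gene Flt1 was at -2.25. Level-adjusted, 1 of the 7 endothelial markers (14.3%) was 2-fold or more higher, against 8.95% of all genes. It was Emcn, which was dim, at 1.05. The part of these cells in the differences below was not tested.

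The promoters of the group were searched for the elements through which cAMP and serum act, and are shown first. RefSeq promoters of the GRCr8 build, from 250 bases before to 50 after a start site, were available for 28 of the 38 genes in 30 windows. The genes not matched were Fos, Jun, Egr3, Nr4a3, Arc, Ier3, Dusp4, Klf2, Klf10 and Myc. The full CRE, TGACGTCA on either strand, was found in 6 of the 28 genes (21.4%), namely Crem, Dusp1, Ier2, Jund, Maff and Btg2, and in 2.00% of all 27457 genes with a window. The CArG box, CC and GG around 6 bases that are A or T, was found in 6 of the 28 as well, Egr1, Egr2, Srf, Dusp5, Klf6 and Zfp36, and in 1.77% of all genes. None of the 28 held both in these windows. The CRE core TGACG, or CGTCA on the other strand, which is contained in the full CRE, was found in 19 of 28 (67.9%) against 23.0% of all genes. The EGR site GCGTGGGCG was found in 2 of 28, Jund and Maff, against 0.605% of all genes, and the AP-1 site TGANTCA in 0 of 28 against 8.04%. These are matches of letters in short windows, searched on both strands, and say nothing of binding.

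Below are the stretches with the most full CRE or CArG matches, both written in capitals with the bases around them, 5′ to 3′ on the plus strand, with positions counted from the start site. Crem has several start sites. The window of its upstream start held no full CRE and those of its internal starts held 1 and 2. The short repressor ICER is known to be made from an internal promoter of this gene, and whether it starts at these sites is not part of the table used. Of the genes with 1 full CRE, Dusp1 is shown, which tied with Jund for the most CRE cores, and Egr1, Srf and Dusp5 are the genes with 2 CArG boxes each.
Crem, internal start, chr17:58984711-58984778, -86 to -19: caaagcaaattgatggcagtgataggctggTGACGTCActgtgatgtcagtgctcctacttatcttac
Crem, second internal start, chr17:58985425-58985539, -65 to 50: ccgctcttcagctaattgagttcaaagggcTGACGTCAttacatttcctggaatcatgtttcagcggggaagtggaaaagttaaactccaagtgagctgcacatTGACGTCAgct
Dusp1, chr10:17184699-17184766, -154 to -87: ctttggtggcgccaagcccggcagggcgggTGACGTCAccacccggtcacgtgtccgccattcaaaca
Egr1, chr18:26736943-26737034, -135 to -44: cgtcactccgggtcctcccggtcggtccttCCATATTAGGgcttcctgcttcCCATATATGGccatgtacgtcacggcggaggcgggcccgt
Srf, chr9:21923965-21924054, -111 to -22: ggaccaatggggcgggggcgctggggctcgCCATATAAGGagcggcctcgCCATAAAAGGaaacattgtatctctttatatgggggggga
Dusp5, chr1:262543662-262543741, -112 to -33: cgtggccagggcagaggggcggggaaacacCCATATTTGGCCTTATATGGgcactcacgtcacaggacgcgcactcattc
The genes with a full CRE and those with a CArG box covered overlapping ranges of difference between the pools. By brightest probe set, the 5 measured genes with a CRE had differences of -1.38 to 0.96 and a median of 0.22 (level-adjusted 0.11). In those probe sets 0 of them were 2-fold or more higher, where 11.5% of all genes were. Jund was 2-fold or more lower, 1 of the 5, where 9.62% of all genes were. Other probe sets of Crem, Dusp1 and Jund were past 2-fold higher, at up to 1.90, 2.08 and 1.61. The 0 thus depends on the probe set taken. The 22 measured genes with a window and no CRE had differences of -0.81 to 1.55 and a median of 0.61 (level-adjusted 0.25). Of these 22, 5 were 2-fold or more higher, against the same 11.5% of all genes, and 0 lower. The 5 were Egr2, Sik1, Klf6, Dusp6 and Ier5. All but Sik1 had probe sets of both signs, so the 5 depends on the probe set too. Level-adjusted, Egr2 and Sik1 stayed past 2-fold. The 6 with a CArG box had differences of -0.03 to 1.43 and a median of 0.47 (level-adjusted 0.33), and the 21 measured genes with a window and no CArG box had a median of 0.56 (level-adjusted 0.24). As deposited, 2 of the 6, Egr2 and Klf6, and 3 of the 21 were 2-fold or more higher, against 11.5% of all genes. In the same order 0 and 1 were lower, against 9.62%.

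As a group, the immediate-early genes lay on the higher side in 2RH30, by an amount that was small for most of them. As deposited, 28 of the 37 genes (75.7%) were above 0 in their difference and 9 below, against 56.1% above 0 among all genes. Their median difference was 0.56, against 0.11 over all 14217 genes. Level-adjusted, 25 were above 0 (67.6%, against 51.2% of all genes) and 12 below, with a median of 0.24 against 0.02 over all genes. Of the 37 genes, 7 (18.9%) were 2-fold or more higher in 2RH30, where 11.5% of all genes were, and 2 (5.41%) were 2-fold or more lower, where 9.62% were. The 7 were Nr4a3, Sik1, Egr2, Egr3, Klf6, Dusp6 and Ier5, and the 2 were Jund and Arc. Level-adjusted, Nr4a3, Sik1, Egr2 and Egr3 remained past 2-fold above 0, so that 4 of 37 genes (10.8%) stood against 8.95% of all genes, and Jund and Arc remained below, 2 of 37 (5.41%) against 9.31%. The share of higher genes was thus above that of the whole array as deposited and near it once level-adjusted, and the share of lower genes was below that of the whole array in both forms. Counted by probe set, 14 of 67 (20.9%) were 2-fold or more higher against 11.8% of all probe sets with 1 named gene, and 3 (4.48%) were lower against 10.4%. Level-adjusted, 8 of 67 (11.9%) were higher against 9.98%, and 2 (2.99%) were lower against 9.18%. In 15 genes (40.5%) the difference exceeded the SD of 0.80 between probe sets, against 31.2% of all genes, and level-adjusted in 9 genes (24.3%) against 27.5%.

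**Figure D1:**
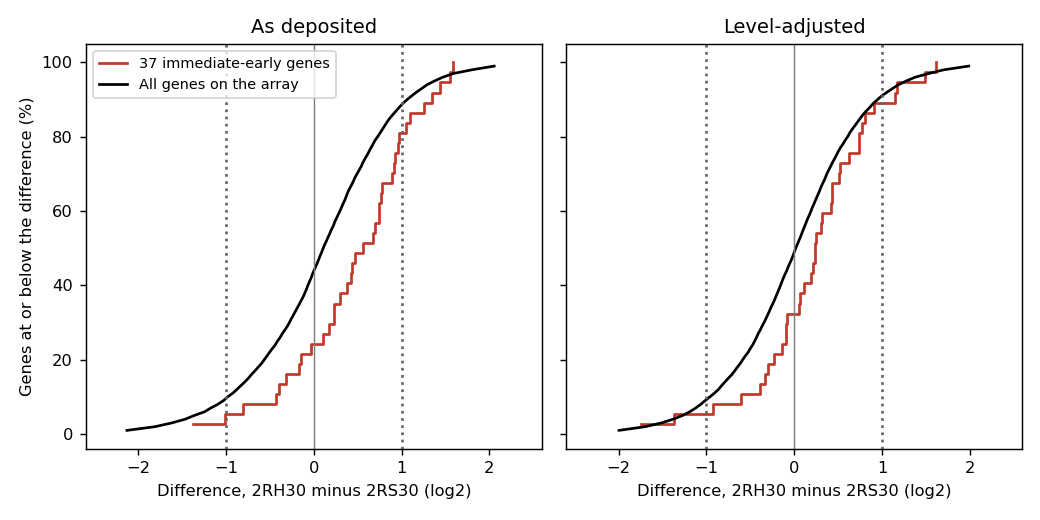
Cumulative share of genes (vertical axis, %) at or below a given difference, 2RH30 minus 2RS30 (log2, horizontal axis), for the 37 immediate-early genes (red steps) and for all genes on the array (black), as deposited on the left and level-adjusted on the right. Dotted lines mark a 2-fold difference. The red steps lie to the right of the black curve near 0, with medians of 0.56 and 0.11 as deposited, and the distance is smaller once level-adjusted, with medians of 0.24 and 0.02.

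**Figure D2:**
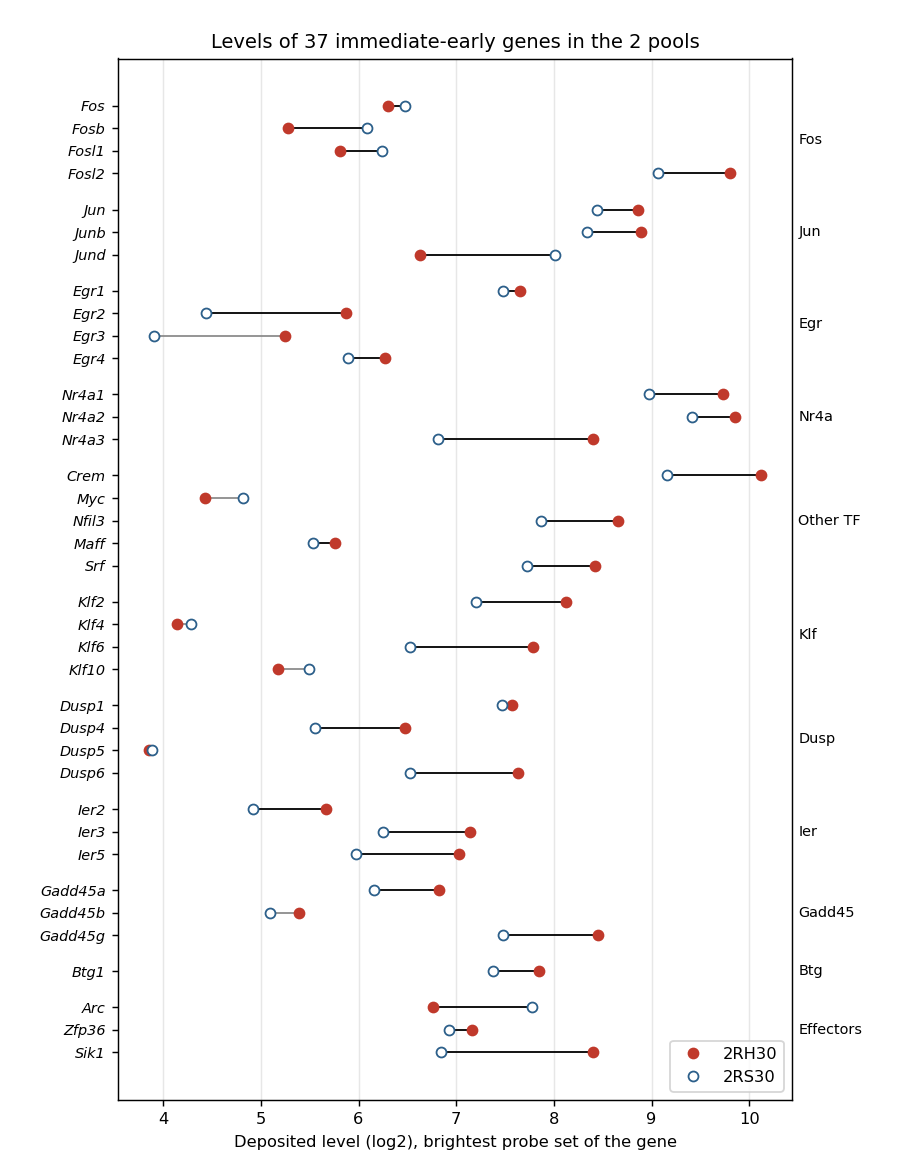
Deposited level (log2, horizontal axis) of the brightest probe set of each of the 37 genes in 2RH30 (filled) and 2RS30 (open), grouped by family. Grey connecting lines mark genes that were dim on both arrays. Fos, Fosb, Fosl1, Jund, Arc, Myc, Klf4, Klf10 and Dusp5 lie to the left in 2RH30, and the other 28 genes to the right.

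Within the AP-1 proteins the Fos and Jun genes did not share a direction. Fos, which forms the AP-1 dimer with a Jun protein, was at 6.30 in 2RH30 and 6.47 in 2RS30, a difference of -0.17 (level-adjusted -0.39). Its other probe set was dim, at 4.26 in 2RH30 and 4.82 in 2RS30. Both probe sets of Fos were thus slightly lower in 2RH30, by less than the SD between probe sets. Fosb, a paralog with a truncated stable isoform, was at 5.28 in 2RH30 and 6.08 in 2RS30, a difference of -0.81 (level-adjusted -0.93). Fosl1, which encodes Fra-1, was at 5.81 in 2RH30 and 6.24 in 2RS30, a difference of -0.43 (level-adjusted -0.61). These 3 genes, and all 4 of their probe sets, had lower values in 2RH30 in either form, whereas Fosl2, which encodes Fra-2, had higher ones. Fosl2 read 9.80 in 2RH30 and 9.06 in 2RS30 in its brightest probe set. Its other one read 9.04 in 2RH30 and 8.36 in 2RS30. The differences of Fosl2, 0.74 and 0.69 (level-adjusted 0.21 and 0.18), lay close to each other and, once level-adjusted, well under the SD between probe sets.

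Jun and Junb followed the trend of bright probe sets. Jun was at 8.86 in 2RH30 and 8.44 in 2RS30 in its brightest probe set. Its 3 differences were 0.42, 0.56 and 0.53, which became -0.08, 0.07 and 0.10 when level-adjusted. Junb, an AP-1 subunit that restrains Jun, was at 8.89 in 2RH30 and 8.34 in 2RS30, a difference of 0.56 (level-adjusted 0.06). Level-adjusted, the values of both genes were thus near 0, with probe sets of Jun on either side of it. Jund, the Jun protein found in unstimulated cells, was lower in 2RH30 in its brightest probe set, at 6.63 against 8.01 in 2RS30, a difference of -1.38 (level-adjusted -1.75). A second probe set of Jund pointed the other way, at 7.69 in 2RH30 and 6.09 in 2RS30, a difference of 1.61 (level-adjusted 1.31). The third differed by -0.50 (level-adjusted -0.73). The SD over the 3 was 1.53, so no direction can be given for Jund.

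Among the Egr zinc finger factors, the widely used marker Egr1 was close to equal in the pools. Egr1 was at 7.65 in 2RH30 and 7.48 in 2RS30, a difference of 0.17 (level-adjusted -0.23). Egr2, also known as Krox20, was at 5.87 in 2RH30 and 4.44 in 2RS30, a difference of 1.43 (level-adjusted 1.49), but its dim probe set was at 4.48 in 2RH30 and 5.10 in 2RS30, a difference of -0.62 (level-adjusted -0.42). The 2 probe sets of Egr2 thus went in opposite directions. Egr3, often induced together with Egr2, was read by 1 probe set, which was dim, at 5.25 in 2RH30 and 3.91 in 2RS30, a difference of 1.34 (level-adjusted 1.62). Egr4 was at 6.27 in 2RH30 and 5.89 in 2RS30, and its other probe set at 6.05 in 2RH30 and 5.52 in 2RS30, with differences of 0.38 and 0.53 (level-adjusted 0.20 and 0.39). The 2-fold differences of this family thus rested on a dim probe set in Egr3 and on a contested one in Egr2, and Egr1 and Egr4 differed by less than the SD between probe sets.

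The Nr4a genes encode orphan nuclear receptors that need no ligand and are controlled mainly through their transcription. All 6 probe sets of the family had higher values in 2RH30 as deposited, and level-adjusted the 2 of Nr4a2 did not. Nr4a1, also called Nur77 or NGFI-B, was at 9.73 in 2RH30 and 8.97 in 2RS30, a difference of 0.76 (level-adjusted 0.24). Nr4a2, or Nurr1, was at 9.85 in 2RH30 and 9.42 in 2RS30, and its second probe set at 9.37 in 2RH30 and 8.98 in 2RS30. The differences of Nr4a2 were 0.43 and 0.38 and turned to -0.09 and -0.14 when level-adjusted. Nr4a3, or NOR-1, stood apart from these with its brightest probe set at 8.40 in 2RH30 and 6.81 in 2RS30, a difference of 1.58 (level-adjusted 1.17). Its other probe sets were at 6.84 in 2RH30 and 6.48 in 2RS30, and at 6.38 in 2RH30 and 5.42 in 2RS30. The 3 differences of Nr4a3, 1.58, 0.36 and 0.96, shared their sign and kept it when level-adjusted, at 1.17, 0.09 and 0.80, although their sizes were spread with an SD of 0.61.

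Crem had the most probe sets of the group, and they had the same sign. The gene encodes activators and repressors of CRE-dependent transcription, and the isoform read by each probe set was not determined. Its brightest probe set was at 10.12 in 2RH30 and 9.16 in 2RS30. The other 5 were at 8.62, 8.57, 8.46, 8.24 and 6.94 in 2RH30, against 7.89, 7.53, 7.15, 6.35 and 6.25 in 2RS30. In the same order the 6 differences were 0.96, 0.73, 1.04, 1.32, 1.90 and 0.69, all higher in 2RH30, and 3 of them were 2-fold or more. Level-adjusted they were 0.43, 0.26, 0.58, 0.88, 1.53 and 0.43, so that the sign held in all 6 and 1 stayed past 2-fold. Their mean was 1.11 (SD 0.45 over 6 probe sets), and level-adjusted 0.69. The probe sets of a gene share the 2 pools, so this agreement is a repeat of the reading and not of the animals. The paper lists Crem among its most reduced genes after recurrent hypoglycemia at baseline, before the clamp, a time point not analysed here.

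The other transcription factors of the group had small differences. Nfil3, a bZIP repressor also known as E4BP4, was at 8.65 in 2RH30 and 7.87 in 2RS30, a difference of 0.78 (level-adjusted 0.30). Srf, the CArG box factor itself, was at 8.42 in 2RH30 and 7.72 in 2RS30, and its 3 probe sets had differences of 0.70, 0.59 and -0.20 (level-adjusted 0.24, 0.42 and -0.24). Maff, a small Maf protein, differed by 0.22 (level-adjusted 0.11), at 5.76 in 2RH30 and 5.54 in 2RS30. Myc was dim, at 4.43 in 2RH30 and 4.82 in 2RS30, a difference of -0.39 (level-adjusted -0.13). All of these lay within the SD between probe sets.

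**Figure D3:**
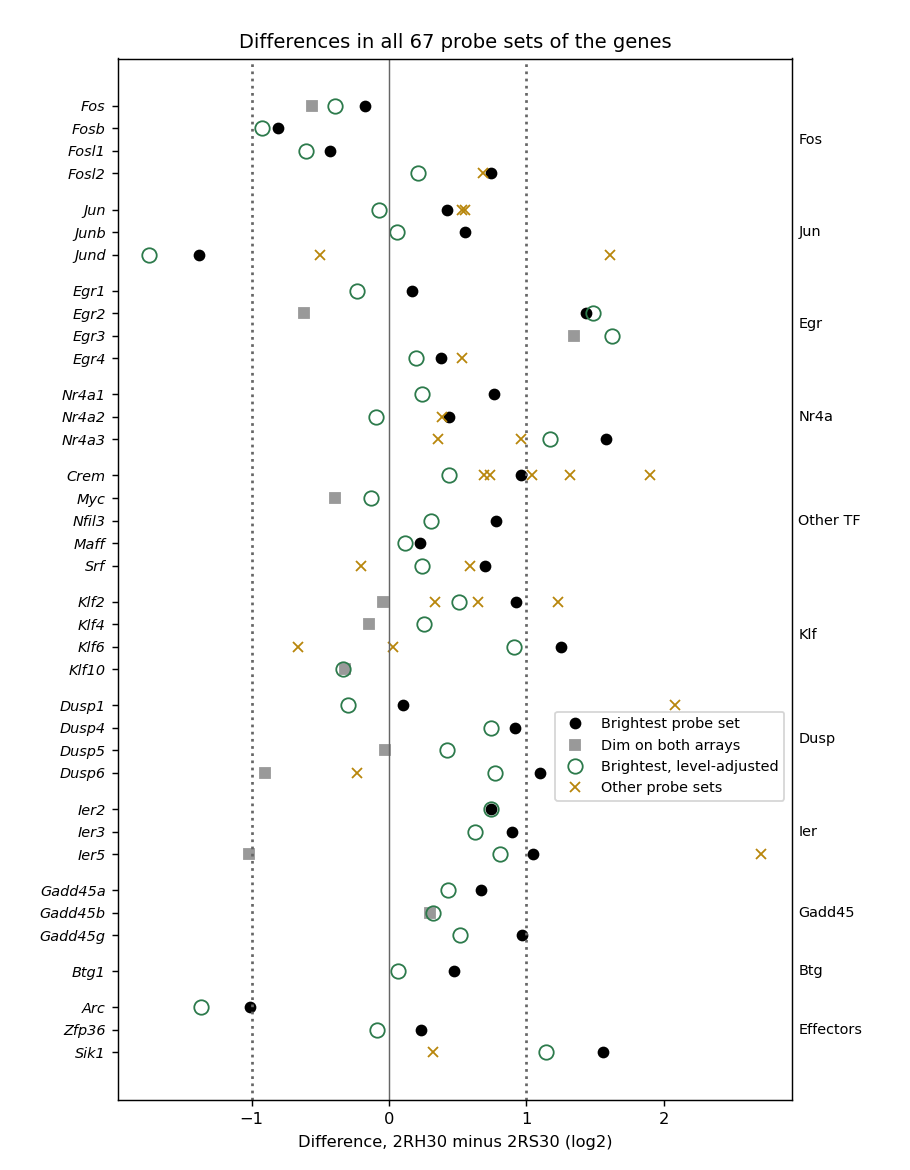
Difference, 2RH30 minus 2RS30 (log2, horizontal axis), of all 67 probe sets of the 37 genes, grouped by family, with the brightest probe set (black), other probe sets (crosses), probe sets dim on both arrays (grey squares) and the level-adjusted value of the brightest one (open green). Dotted lines mark a 2-fold difference. The 6 probe sets of Crem and the 3 of Nr4a3 lie above 0, whereas those of Jund, Ier5, Dusp6 and Klf6 lie on both sides.

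Of the Krüppel-like factors, Klf2 and Klf6 had the larger differences. Klf2, which is induced by shear stress in endothelium, was at 8.12 in 2RH30 and 7.20 in 2RS30, a difference of 0.92 (level-adjusted 0.51). The remaining 4 were at 7.36, 6.78, 6.05 and 4.39 in 2RH30, against 6.13, 6.13, 5.71 and 4.43 in 2RS30, and the last of them was dim. Their differences were 1.23, 0.65, 0.33 and -0.04 (level-adjusted 0.95, 0.41, 0.17 and 0.29). Level-adjusted, all 5 probe sets of Klf2 were thus higher in 2RH30, while as deposited 4 were. Klf6 was at 7.78 in 2RH30 and 6.53 in 2RS30, a difference of 1.25 (level-adjusted 0.91). Its remaining probe sets, at 6.52 and 6.00 in 2RH30, against 6.49 and 6.66 in 2RS30, gave 0.03 and -0.66 (level-adjusted -0.21 and -0.87). For Klf6 the sign therefore depends on the probe set. Klf4, a factor of epithelial and stem cells, was dim, at 4.14 in 2RH30 and 4.28 in 2RS30, a difference of -0.14 (level-adjusted 0.25). Klf10, induced by TGF-beta, was dim as well, at 5.17 in 2RH30 and 5.495 in 2RS30, a difference of -0.32 (level-adjusted -0.34).

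The Dusp genes encode phosphatases that switch off the MAP kinases by which many genes of this group are induced. Dusp1, the nuclear phosphatase MKP-1, gave conflicting sizes. Its brightest probe set was at 7.57 in 2RH30 and 7.47 in 2RS30, a difference of 0.10 (level-adjusted -0.30), and its second, of nearly the same mean level, was at 8.48 in 2RH30 and 6.41 in 2RS30, a difference of 2.08 (level-adjusted 1.69). The choice of the brightest probe set thus decides whether Dusp1 counts as different. Dusp4, or MKP-2, was at 6.47 in 2RH30 and 5.55 in 2RS30, a difference of 0.92 (level-adjusted 0.74). Dusp5, a nuclear ERK phosphatase, was dim, at 3.85 in 2RH30 and 3.88 in 2RS30, a difference of -0.03 (level-adjusted 0.42). Dusp6, the cytosolic ERK phosphatase MKP-3, was at 7.63 in 2RH30 and 6.53 in 2RS30, a difference of 1.10 (level-adjusted 0.77), while its remaining probe sets, at 5.78 and 3.73 in 2RH30, against 6.01 and 4.63 in 2RS30, gave -0.23 and -0.90 (level-adjusted -0.39 and -0.50), the second of these being dim. The mean difference over the 3 probe sets of Dusp6 was -0.0117.

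The 3 Ier genes were higher in 2RH30 in their brightest probe sets in both forms. Ier2 was at 5.66 in 2RH30 and 4.92 in 2RS30, a difference of 0.74 (level-adjusted 0.74). Ier3, a regulator of cell survival also named IEX-1, was at 7.14 in 2RH30 and 6.25 in 2RS30, a difference of 0.89 (level-adjusted 0.62). Each of these is read by 1 probe set. Ier5 was at 7.02 in 2RH30 and 5.98 in 2RS30, a difference of 1.05 (level-adjusted 0.81). Its second probe set was at 7.72 in 2RH30 and 5.01 in 2RS30, a difference of 2.71 (level-adjusted 2.49), the highest of the 67. The third, which was dim, was at 3.90 in 2RH30 and 4.92 in 2RS30, a difference of -1.02 (level-adjusted -0.69). The SD over the 3 probe sets of Ier5 was 1.87, the widest of the group.

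The stress-induced Gadd45 genes had higher values in 2RH30 in both forms, each from 1 probe set. Gadd45a was at 6.83 in 2RH30 and 6.16 in 2RS30, a difference of 0.67 (level-adjusted 0.43). Gadd45b, which was dim, was at 5.39 in 2RH30 and 5.09 in 2RS30, a difference of 0.30 (level-adjusted 0.32). Gadd45g was at 8.45 in 2RH30 and 7.48 in 2RS30, a difference of 0.97 (level-adjusted 0.52). The antiproliferative gene Btg1 was at 7.85 in 2RH30 and 7.37 in 2RS30, a difference of 0.47 (level-adjusted 0.06). Level-adjusted, these 4 genes lay within the SD between probe sets.

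Among the remaining effectors, Arc and Sik1 differed in opposite directions. Arc, which encodes a capsid-like protein that acts at neuronal synapses, was at 6.76 in 2RH30 and 7.77 in 2RS30, a difference of -1.01 (level-adjusted -1.37). It was read by 1 probe set, so that no second reading bears on it. Sik1, a kinase induced by cAMP that phosphorylates the CREB coactivators of the Crtc family, was at 8.40 in 2RH30 and 6.84 in 2RS30, a difference of 1.55 (level-adjusted 1.14). The second probe set of Sik1 was at 7.09 in 2RH30 and 6.77 in 2RS30, a difference of 0.32 (level-adjusted 0.02). Zfp36, or tristetraprolin, which binds AU-rich transcripts and promotes their decay, was at 7.16 in 2RH30 and 6.93 in 2RS30, a difference of 0.23 (level-adjusted -0.09).

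Probe sets of 1 gene often disagreed. Of the 16 genes with several probe sets, 8 had every probe set higher in 2RH30, namely Crem, Jun, Nr4a2, Nr4a3, Fosl2, Egr4, Sik1 and Dusp1. Fos had both lower. The other 7, Jund, Egr2, Srf, Klf2, Klf6, Dusp6 and Ier5, had probe sets of both signs. Agreement in sign was thus 56.2%, against 48.7% of the 4525 genes with several probe sets on the whole array, and level-adjusted it was 8 of 16 (50.0%) against 41.8%. Differences varied between the probe sets of a gene with a pooled SD of 0.89 in the group and 0.80 over all genes. Nr4a2, Fosl2, Jun and Egr4 had SDs of 0.04, 0.04, 0.07 and 0.11, and their differences were at or under 0.74. Of the 9 genes past 2-fold in their brightest probe set, Egr2, Klf6, Dusp6, Ier5 and Jund had probe sets of both signs, Egr3 and Arc were read by 1 probe set, and Nr4a3 and Sik1 had every probe set higher in 2RH30. As deposited, only Crem and Ier5 had 2 or more probe sets past 2-fold in 1 direction, 3 of 6 in Crem and 2 of 3 in Ier5. Level-adjusted, Crem and Ier5 each kept 1 probe set past 2-fold.

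**Figure D4:**
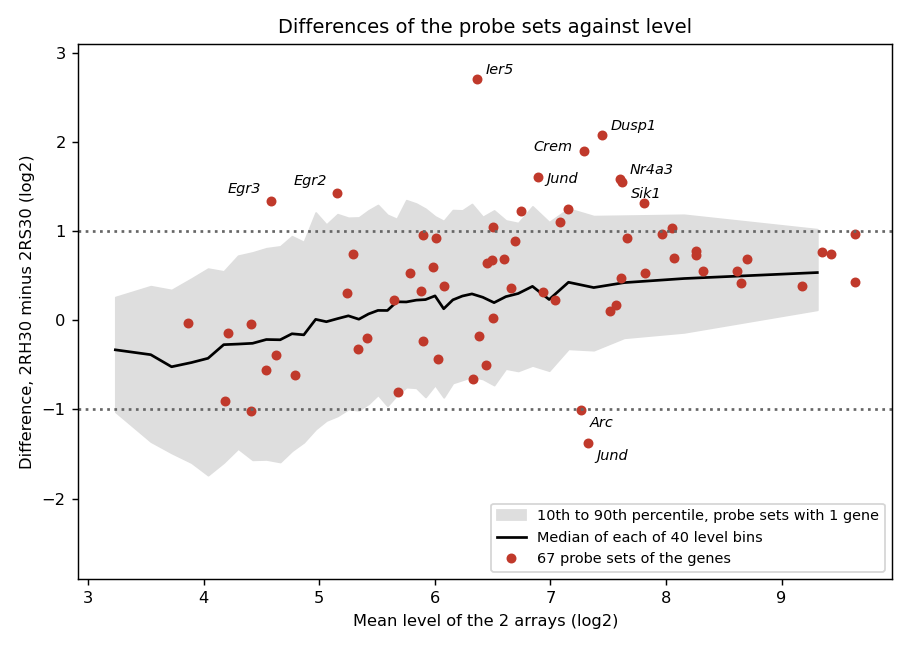
Difference, 2RH30 minus 2RS30 (log2, vertical axis), of the 67 probe sets (red) by their level, averaged over both arrays (log2, horizontal axis). The grey band spans the 10th to 90th percentile and the black line the median of 40 level bins of all probe sets with 1 named gene, and dotted lines mark a 2-fold difference. The median line lies at -0.33 at its left end and at 0.54 at its right end, and the labelled probe sets lie outside the band.

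The 2-fold differences were not spread evenly over levels. Of the probe sets of the group, 15 had mean levels of 6.5 to 7.5, and 7 of these were 2-fold or more higher in 2RH30 and 2 lower. The 7 were of Ier5, Jund, Klf2, Klf6, Dusp1, Dusp6 and Crem, and the 2 of Jund and Arc. Jund thus counted on both sides, and Ier5, Jund, Klf2, Klf6 and Dusp6 had probe sets of both signs. Among all probe sets in the range of 6.5 to 7.5, 15.3% were higher and 2.65% lower. In the brighter range above 7.5, 4 of 22 were higher, against 14.1% of all probe sets there, and 0 were lower, against 0.453%. Between 5.5 and 6.5, 1 of 16 was higher, against 15.2%, and below 5.5, 2 of 14 were higher and 1 lower, against 7.98% and 17.7%. The median difference of the group was -0.17 below a level of 5.5, 0.36 between 5.5 and 6.5, 0.89 between 6.5 and 7.5, and 0.72 above 7.5. That of all probe sets in the same ranges was -0.19, 0.21, 0.32 and 0.49, so the group was close to all probe sets in the lowest range and farthest above them between 6.5 and 7.5. Level-adjusted, the 4 medians of the group were 0.06, 0.18, 0.62 and 0.23.

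Genes around this group were read for comparison. Of 31 measured upstream kinases and activators, 9 (29.0%) were 2-fold or more higher in 2RH30 and 2 (6.45%) lower, against 11.5% and 9.62% of all genes. Among the higher ones, Rps6ka4, Crtc1 and Camk2d also had probe sets below 0, the lowest at -0.46, -0.47 and -0.33. Level-adjusted, 5 (16.1%) were higher and 1 (3.23%) lower, against 8.95% and 9.31%, and the median difference of the list was 0.45 as deposited and 0.06 level-adjusted. Prkar2b, a regulatory subunit of PKA, was at 6.52 in 2RH30 and 4.37 in 2RS30. Mapk14, the kinase p38α, was at 6.03 in 2RH30 and 3.14 in 2RS30, where the 5th percentile of the 2RS30 array was 3.67, and a value that low leaves the fold poorly determined. The lowest that were not dim were Elk1, a partner of SRF, at -1.06 (level-adjusted -1.22), and Crtc2, a CREB coactivator, at -0.72 (level-adjusted -0.85). Of 9 measured AP-1 partners and repressors, 3 (33.3%) were 2-fold or more higher and 0 lower, against 11.5% and 9.62% of all genes, with a median of 0.17 (level-adjusted 0.11). Level-adjusted, 1 (11.1%) was higher and 0 were lower, against 8.95% and 9.31%. The 3 were Jdp2, which dimerizes with Jun and represses AP-1, at 1.84 (level-adjusted 1.63), Nab1, a repressor of Egr proteins, at 1.22 (level-adjusted 0.91), and Atf2, a partner of Jun, at 1.03 (level-adjusted 0.90). The lowest of that list that were not dim, Batf3 and Mafk, differed by 0.11 and 0.17 (level-adjusted -0.09 and -0.21). Of 37 other stimulus-induced genes, 8 (21.6%) were 2-fold or more higher and 1 (2.7%) lower, against 11.5% and 9.62% of all genes, with a median of 0.37 (level-adjusted 0.19). Level-adjusted, 4 (10.8%) were higher, near the 8.95% of all genes, and 1 (2.7%) was lower, against 9.31%. Cebpd, a bZIP factor, and Errfi1, a feedback inhibitor of the EGF receptor, were the highest at 2.06 and 1.39 (level-adjusted 1.71 and 1.25), although the probe sets of Cebpd ranged down to -0.40. Bdnf, a neurotrophin gene with CRE-dependent promoters, was the lowest, at 4.42 in 2RH30 and 6.34 in 2RS30, a difference of -1.92 (level-adjusted -1.94), and its other probe set differed by -0.16. Klf5, a further Krüppel-like factor, was the next lowest that was not dim, at -0.83 (level-adjusted -0.996) in the brightest of 4 probe sets. The probe sets of Klf5 ranged up to 0.20.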

How the data were processed

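Total RNA of 6 rats per group was pooled, and 1 array per group was hybridized. The deposited table of the authors holds log2 levels, 1 for each probe set on each array. Their processing notes name Affymetrix Expression Console without a version. The methods describe the deposited data as quantile-normalized, although the sorted values of the arrays were not identical, and name GCRMA in Partek for the analysis of the study. How the deposited levels were summarized from probes is not stated for them. The log2 scale was read from the range of values, and the precision is limited by the number of arrays.

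Of 31099 probe sets, 57 controls were set aside. Of the rest, 20826 had 1 gene in the platform annotation, 436 had several and 9780 had none. Symbols came from RefSeq for GRCr8, which 20758 of the gene numbers matched. Differences were counted at 2-fold, the fold threshold of the study. The paper also names a P-value cutoff, which could not be applied here with 1 array per group. The level trend was removed by lowess over all 31042 probe sets (fraction 0.3, 3 iterations). The step was tried on simulated data with a straight trend and a narrower spread than these arrays. That trial does not show how well the 2-fold counts hold here. No model was fitted. All members are named, with up to 2 highest and 2 lowest genes that were not dim of each further list. Atf2, Rps6ka4, Crtc1 and Camk2d were named after their values were seen. Members and lists were chosen with earlier results of these data known. Motifs were searched on both strands of RefSeq promoters. Alternatives were median centring, quantile normalization, lowess with fraction 0.3 or 0.1, thresholds of 1.5-fold and 3-fold, leaving out dim probe sets or those named _x_at, _s_at or _a_at, and the mean or median over probe sets. Python 3.11.15, pandas 2.3.3, numpy 2.4.6, statsmodels 0.14.6 and matplotlib 3.10.9 were used.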

Additional observations from a re-analysis of the deposited data

How the results depend on the processing

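The median was moved most by the level trend, and the counts by the threshold. Against a median difference of 0.56 over the 37 genes, quantile normalization gave 0.23, lowess 0.24 (also 0.24 with fraction 0.1), lowess with the mean over probe sets, which was added after the data were seen, 0.24, and leaving out dim probe sets 0.70. Against 7 genes 2-fold or more higher, quantile normalization and lowess with either fraction gave 4, the mean and the median over probe sets 3, and lowess with the mean 1. Of these settings, shares over all genes were given above for lowess only. Against 2 genes lower, the mean, the median and lowess with the mean gave 1. Against 14 probe sets higher, quantile normalization and lowess with either fraction gave 8. At 1.5-fold 18 genes were higher and 3 lower, and 31 probe sets were higher and 7 lower. Over all genes, 1.5-fold higher lay just above the 74th percentile of the difference. A difference of 1.5-fold lower lay between the 19th and 20th percentiles of all genes. At 3-fold 0 genes were higher or lower, and 4 probe sets were higher and 0 lower. For all genes, 3-fold higher lay just under the 97th percentile and 3-fold lower between the 3rd and 4th. Under lowess with either fraction and under quantile normalization, 7 genes with small differences took the other sign, with lowess values of -0.30 for Dusp1, 0.42 for Dusp5, -0.23 for Egr1, -0.08 for Jun, 0.25 for Klf4, -0.09 for Nr4a2 and -0.09 for Zfp36. Of these, Dusp5, Egr1, Klf4, Nr4a2 and Zfp36 also did so under lowess with the mean. Dusp6 changed sign, to -0.0117 as the mean, -0.23 as the median and -0.0405 as the lowess-adjusted mean of its probe sets, and Klf6 to -0.0585 as the lowess-adjusted mean. Of 326 values of single genes, 310, those 7 genes' changes of sign included, lay within the SD between probe sets of the deposited value, and 12 of the same sign lay beyond it. The 12 belonged to Dusp1, Egr2, Jund, Klf6, Nr4a3 and Sik1, under averaging over probe sets. Beyond what follows from each construction, the cause was not tested. No paired analysis was possible because there is only 1 array for either group.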

Other observations

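Many transcripts of immediate-early genes carry AU-rich elements and are short-lived, and factors that act on such transcripts were read as well. Of 12 such genes, 1 (8.33%) was 2-fold or more higher in 2RH30 and 0 were lower, against 11.5% and 9.62% of all genes (level-adjusted 0 and 0, against 8.95% and 9.31%), with a median difference of 0.08 (level-adjusted 0.13). Zfp36l1, a decay factor related to Zfp36, was at 8.71 in 2RH30 and 7.31 in 2RS30, a difference of 1.40 (level-adjusted 0.94), from 1 probe set. Zfp36l2 was at 10.29 in 2RH30 and 9.41 in 2RS30, a difference of 0.89 (level-adjusted 0.35), and its 3 probe sets were all higher. The lowest that were not dim were Tob2, an antiproliferative protein that recruits deadenylases, at -0.25 (level-adjusted -0.40), and Khsrp, an RNA-binding decay factor, at -0.03 (level-adjusted -0.28).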
